A study of Homo sapiens with 6 samples.

Results

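The nonsense-mediated decay (NMD) factors were taken as the rows that carry the symbols UPF1, UPF2, UPF3A, UPF3B, SMG1, SMG5, SMG6, SMG8 and SMG9 in the 2 deposited tables. All 9 genes were found among the 8121 genes of the translational efficiency table, and 7 of them among the 9570 transcripts of the ribosome occupancy table, where SMG1 and SMG9 have no row. The data are ribosome profiling of HEK293, an established line derived from human embryonic kidney, with 3 libraries of ribosome-protected fragments (RPFs) and 3 libraries of total RNA from the same lysates. The labels give a control siRNA for all 6 libraries, and cycloheximide was added at 100 µg/ml before lysis to hold ribosomes in place. There is a single condition, so genes were compared with one another and with all genes measured, and no treatment was compared.

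NMD removes mRNAs on which a ribosome terminates early, often upstream of an exon junction. UPF1, an RNA helicase, is bound by UPF2, which in turn binds UPF3A or UPF3B, the adaptors to the exon junction complex. SMG1 is the kinase that phosphorylates UPF1 and is held in check by SMG8 and SMG9, while SMG5 and SMG6 recognise phosphorylated UPF1, SMG6 being the endonuclease that cuts the target.

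The start codons shown are of mRNAs with a peak of ribosomes there or with no read, while those of SMG6, UPF3B and UPF2 held few reads. In the matched GENCODE models on GRCh37 (the build of hg19), each of these 27-base windows lies in exon 1, with the AUG of the coding sequence (CDS) in capitals. UPF1 lies at chr19:18943007-18943033 and SMG8 at chr17:57287401-57287427, both on the plus strand, and both carried a footprint peak on the AUG. UPF3A at chr13:115047103-115047129 on the plus strand and SMG5 at chr1:156252457-156252483 on the minus strand had no in-frame footprint on it.
UPF1: cccggaggcaccATGagcgtggaggcg
SMG8: acgctctgcactATGgctggtcccgtg
UPF3A: ggagagtgcggcATGcgctcggaaaag
SMG5: gacccgggcaccATGagccaaggcccc

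A purine stood 3 bases before the AUG in 9 of 9 factors, against 86.0% of 9082 matched transcripts. A purine there together with a G just after the AUG was found in 2 of 9, SMG6 and SMG8, against 46.1% of all. Of the mRNAs with a start peak, SMG8 has this G and UPF1 has an A.

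An AUG upstream of the CDS was present in the 5′UTR models of 4 of 9 factors (UPF2, SMG1, SMG5 and SMG9), against 43.2% of all matched transcripts. The models of UPF1, UPF3A, UPF3B and SMG8 are shorter than the deposited 5′UTRs, and an AUG in the missing part would not be counted. The windows of the 4 factors are shown with the upstream AUG in capitals, since an upstream open reading frame could be read there. They lie in exon 1 on the minus strand, at chr10:12084759-12084785 for UPF2, chr16:18937369-18937395 for SMG1, chr1:156252578-156252604 for SMG5 and chr19:44259070-44259096 for SMG9.
UPF2: aacccggggctaATGttgacaacaggc
SMG1: cggcgcttggccATGtcgtgtcgggga
SMG5: cgcctcacagcgATGgcggccgagcag
SMG9: agccctcagcgcATGcgcaggacgagt

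The reading frames that start there hold 12 codons in UPF2 and 6 in SMG1, both out of frame with the CDS. Each ends at a TAA whose last base is the A of the CDS AUG, so neither is read on into the CDS. They hold 30 codons in SMG5 and 92 in SMG9 and end within the 5′UTR. The deposited occupancy covers only the frame of the CDS, so ribosomes in the other frames of UPF2 and SMG5 are not measured, and SMG1 and SMG9 have no occupancy row.

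Translational efficiency (TE), the authors' ratio of RPFs to total RNA, spread over a wide range among the factors. The mean TE of UPF3B was 14.1 times that of SMG5. Of the 9 factors, 4 were higher and 4 lower than the median of all values, 0.383, and SMG6 was not called. Over all genes, 89.3% of 8121 differed from the median, 44.7% being higher and 44.6% lower, so the count of 8 in 9 is near the background and is not a result about these factors. The median log2 difference of the 9 was 0.0055, which is the value of SMG6, so the middle factor sat at the median of all genes. Differences below are from limma's moderated test on log2(TE + 0.01), with Benjamini-Hochberg adjustment over all 8121 genes, and each value is for n = 3 replicates.

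**Figure D1:**
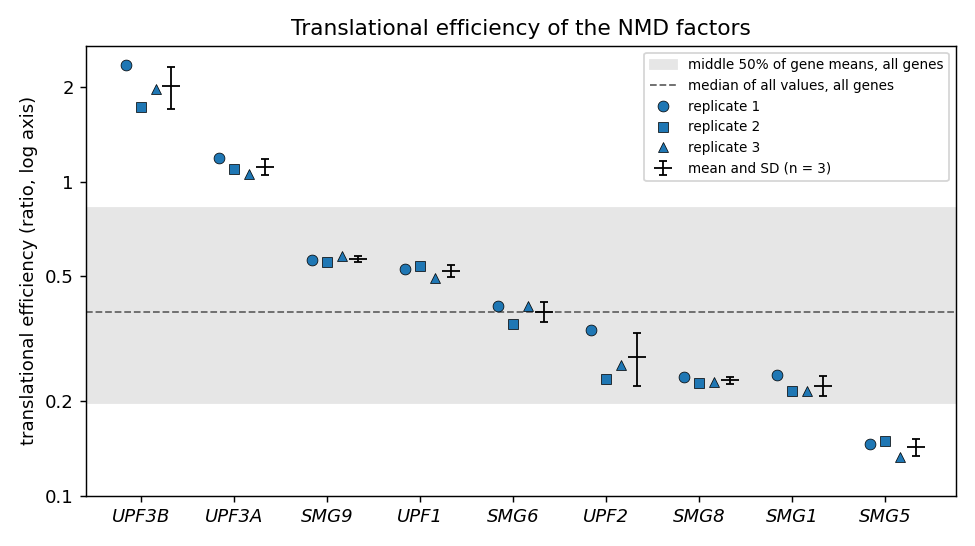
Translational efficiency (ratio, log axis) of each NMD factor in replicates 1 to 3, with the mean and SD (n = 3); the dashed line is the median of all values (0.383) and the grey band the middle of the gene means, from 0.198 to 0.825. UPF3B and UPF3A sit above the band, SMG5 below it and the other factors within it.

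The helicase UPF1 had TE values of 0.527, 0.538 and 0.495 in replicates 1, 2 and 3. All lay above the median, and the mean of 0.520 ± 0.0222 (SD) placed UPF1 at percentile 61.2 of all genes. Its log2 difference from the median was 0.43 (SE 0.052, adjusted p = 0.000762).

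UPF2, the bridge between UPF1 and the UPF3 proteins, gave 0.337, 0.235 and 0.260. Replicate 1 stood above the other two, and no other factor had a larger ratio between its highest and lowest replicate (1.43). The mean of 0.277 ± 0.0532 (SD) was at percentile 36.95, and the log2 difference was -0.47 (SE 0.11, adjusted p = 0.00957).

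The paralogous adaptors had the highest TE of the set. UPF3B gave 2.34, 1.73 and 1.98, at percentile 91.5, with a log2 difference of 2.35 (SE 0.094, adjusted p = 1.04e-05). UPF3A gave 1.192, 1.095 and 1.061, at percentile 82.6, with a log2 difference of 1.52 (SE 0.057, adjusted p = 8.41e-06). The replicates of the paralogs did not overlap, and UPF3B exceeded UPF3A by 1.97, 1.58 and 1.86 times in replicates 1, 2 and 3. The value of UPF3A is uncertain, since 65.5% of the 30-base stretches of its CDS also occur in transcripts of the pseudogenes UPF3AP1, UPF3AP2 or UPF3AP3. The same share was 0.361% for UPF3B.

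The kinase SMG1 and its regulators did not share a level. SMG1 gave 0.243, 0.215 and 0.215, all below the median, with a log2 difference of -0.75 (SE 0.060, adjusted p = 0.000133). SMG8 gave 0.240, 0.229 and 0.230, also all below, with a log2 difference of -0.70 (SE 0.049, adjusted p = 8.08e-05). SMG9 gave 0.564, 0.557 and 0.579, all above the median, with a log2 difference of 0.55 (SE 0.048, adjusted p = 0.000194). The level of SMG1 is uncertain, because 29.4% of its 30-base CDS stretches recur in transcripts of 18 other genes, among them the SMG1P pseudogenes.

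The factors that act on phosphorylated UPF1 lay at or below the median. SMG5 gave 0.146, 0.150 and 0.133, the lowest of the 9, at percentile 14.9, with a log2 difference of -1.36 (SE 0.056, adjusted p = 1.15e-05). SMG6 gave 0.403, 0.352 and 0.402, with replicate 2 below the median and the others above it. Its log2 difference was 0.0055 (SE 0.062, adjusted p = 0.936).

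In the order UPF3B, UPF3A, SMG9, UPF1, SMG6, UPF2, SMG8, SMG1 and SMG5, most neighbours had replicates that did not overlap. The exceptions were UPF2 with SMG8 and SMG8 with SMG1, whose means differed by less than the larger SD of the pair. The replicates of UPF2 and SMG1 also overlapped. Within replicates, UPF2 was above both SMG8 and SMG1 in 3 of 3, and SMG8 was above SMG1 in 2 of 3, and these differences were not tested.

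Other genes of the pathway were read from 4 lists of 26 genes, of which 25 are in the TE table; 14 were higher and 9 lower than the median and 2 were not called. As 89.3% of all genes were called, with 44.7% higher and 44.6% lower, most genes of any list differ from the median, and the counts are descriptions. Of 4 other NMD factors, 3 were lower (DHX34, NBAS and MOV10) and 1 higher (PNRC2). Their log2 differences were -1.40 for DHX34, -0.65 for NBAS, -0.66 for MOV10 and 0.84 for PNRC2. Of 7 exon junction complex genes, 5 were higher and 2 lower, with a median log2 difference of 1.27. MAGOH, a core subunit, had a mean of 4.74 ± 0.326 (SD), the highest of the lists, while RNPS1, an accessory subunit, had 0.133 ± 0.0139.

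Of 5 genes of termination and cap binding, 5 were higher, where 44.7% of all genes were, with a median log2 difference of 0.96. They include ETF1 and GSPT1, the release factors, at 0.679 ± 0.0252 and 0.682 ± 0.0213 (SD). Of 9 tested kinases of the SMG1 family and their assembly factors, 3 were higher, 4 lower and 2 not called. MTOR, a kinase of the same family as SMG1, had 0.290 ± 0.00767 (SD), and ATM 0.164 ± 0.00811. PRKDC, of that family too, had 1.51 ± 0.203 and was higher than the median, while ATR and TRRAP, at 0.421 ± 0.0218 and 0.394 ± 0.112, were the genes not called.

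Markers listed for HEK293 cells, the neurofilament genes NEFL and NEFM with INA and VIM, were listed in both tables (4 of 4), and PTPRC, HBB, ALB and CD3E, markers of other cells, in neither (0 of 4). Replicate medians of TE over all genes ran from 0.3802 to 0.3876, and the median SD between replicates was 0.10 on the log2 scale.

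Ribosome occupancy gives the position of the ribosomes along each mRNA, as in-frame RPFs normalized for library size and divided by the TPM of the transcript. Replicates are combined in the deposited values, which therefore carry no error. Over 9351 transcripts with a CDS over 300 nt the median of the mean occupancy per codon was 0.0442. UPF3B had 0.322 (percentile 98.2), which is 7.29 times that median. UPF3A had 0.0601, UPF1 0.0548 and UPF2 0.0492, all somewhat above it. SMG6 had 0.0339 and SMG8 0.0324, and SMG5 had 0.00547 (percentile 1.78).

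From the highest to the lowest, mean occupancy differed 58.9 times, a wider range than in TE. The order over the 7 factors was close to that in TE (Spearman's rho 0.964, n = 7), where rho over the 6741 genes in both tables was 0.683. The measures are not independent, since both use the same RPF and total RNA libraries, and the coefficients are descriptions only. Between SMG8 and SMG5 the ratio was 1.63 in TE and 5.92 in occupancy.

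**Figure D2:**
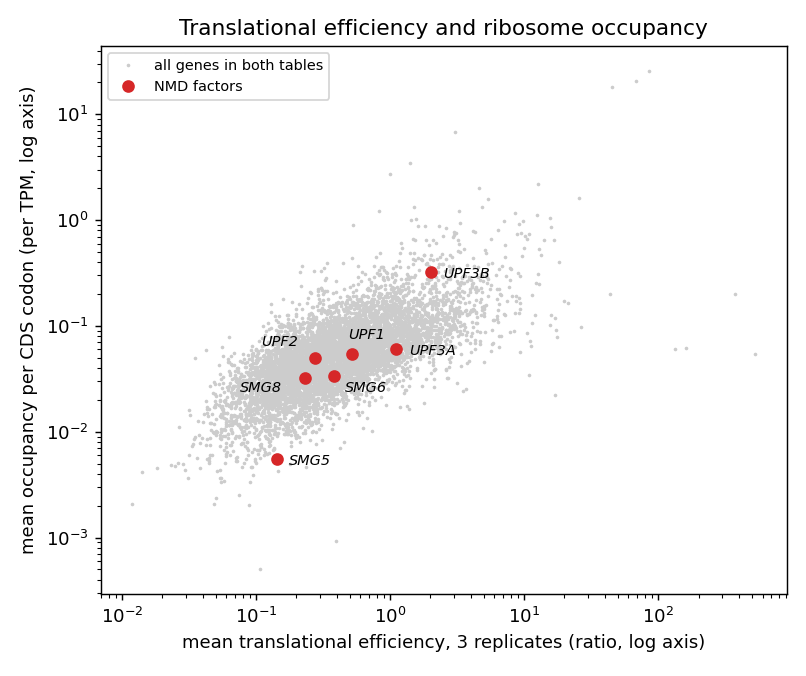
Mean translational efficiency of 3 replicates (ratio, log axis) against mean occupancy per CDS codon (per TPM, log axis); grey points are the genes in both tables and red points the 7 NMD factors. UPF3B is the highest of the factors on both axes and SMG5 the lowest on both.

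The values of a transcript are sums of whole multiples of 3 steps, each the worth of a read in one of the RPF libraries, so reads could be counted. For the 7 factors all 3985 values above 0 matched one set of whole reads, with 0 unmatched and 0 ambiguous at a relative tolerance of 1e-11. The steps are not tied to replicate numbers, and the libraries are called 1, 2 and 3 from the smallest step to the largest. Library 1 therefore need not be replicate 1. CDS reads came to 13025 for UPF1, 10646 for UPF3B, 4541 for SMG8, 4318 for UPF2, 3006 for SMG5, 2558 for UPF3A and 2054 for SMG6. The low occupancy of SMG5 thus did not rest on few reads, but it stood beside a high mRNA level. Its abundance, taken from the inverse of the steps, was 5.99 times the median (percentile 91.7), where UPF1 was at 2.37 and SMG6 at 0.476. This abundance reflects the divisor of the occupancy, so it is not independent of it. Over the 7 factors, Spearman's rho between mean CDS occupancy and abundance was -0.321.

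Per library, on a scale where the 3 libraries average to the deposited value, the mean occupancy of SMG5 was 0.00529, 0.00567 and 0.00546. That of UPF3B was 0.303, 0.268 and 0.395, and that of UPF3A 0.0602, 0.0583 and 0.0618. The 3 values of these mRNAs did not overlap with one another.

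**Figure D3:**
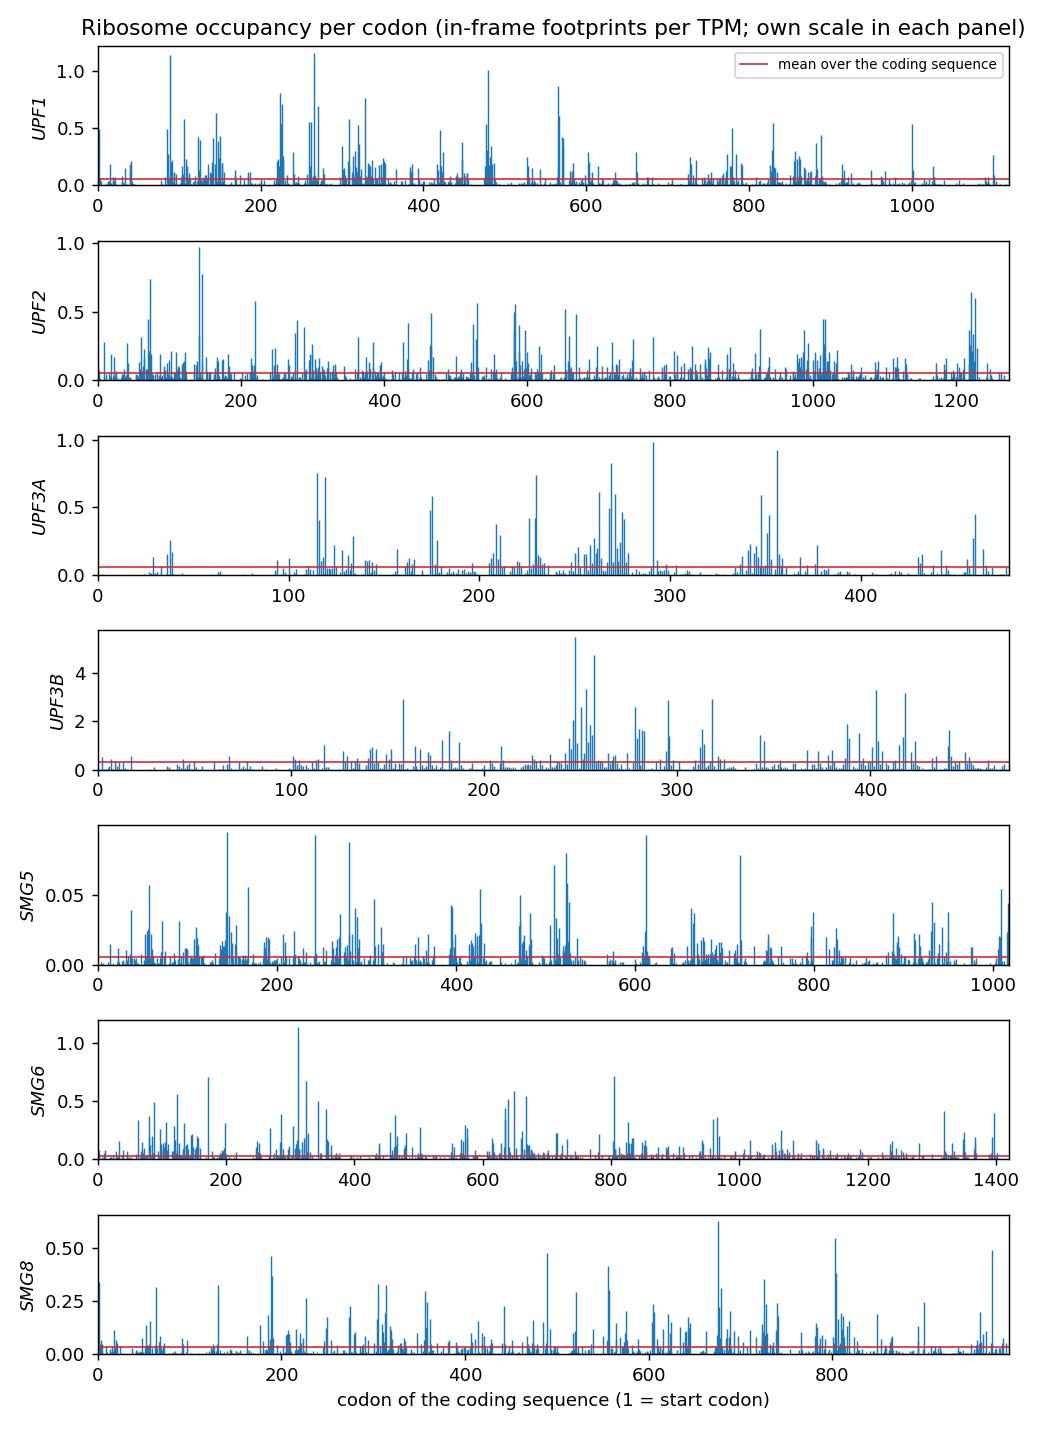
Ribosome occupancy per codon (per TPM, each panel on its own scale) along the coding sequence of the 7 NMD factors, codon 1 being the start codon; the red line is the mean of the coding sequence. UPF3B peaks near codon 247 and UPF1 thins out toward its 3′ end.

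Occupancy along the CDS was uneven in a way that differed between factors. In UPF1, 64.0% of the CDS reads lay before the midpoint (95% Wilson interval 63.2 to 64.8), and library values were 64.4%, 62.5% and 65.6%. In UPF3B it was 30.2% (29.3 to 31.1), with 31.1%, 29.1% and 30.1% in the libraries. The remaining factors lay between, at 63.7% for SMG6, 55.4% for SMG5, 55.3% for UPF2, 46.7% for SMG8 and 43.6% for UPF3A. Intervals cover counting error only. Over all transcripts, the median share of CDS occupancy before the midpoint was 50.7%. By that share UPF3B was at percentile 7.37, UPF1 at 86.9 and SMG6 at 85.7. The other factors lay from percentile 26.8 (UPF3A) to 66.4 (UPF2), so their skews were not unusual.

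With each CDS cut into 5 equal segments, the last segment of UPF1 held 6.33%, 7.64% and 6.41% of the reads in libraries 1, 2 and 3. Its segment 2 held 31.0%, 31.2% and 30.7%. In UPF3A segment 1 held 3.46%, 4.80% and 3.78% and segment 3 held 39.3%, 35.8% and 40.7%. UPF3B held 6.668%, 6.002% and 5.684% in segment 1, all above the values of UPF3A, and 35.3%, 34.6% and 34.5% in segment 3. The paralogs differed in segment 5, with 10.2%, 9.49% and 7.39% in UPF3A and 22.1%, 24.2% and 24.0% in UPF3B. In SMG5, UPF2 and SMG8 no segment of the combined values held more than 25.1% of the occupancy. Spearman's rho over codons between libraries was 0.830 to 0.845 in UPF3B and 0.398 to 0.492 in SMG6, the factor with fewest reads, with the other factors between.

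**Figure D4:**
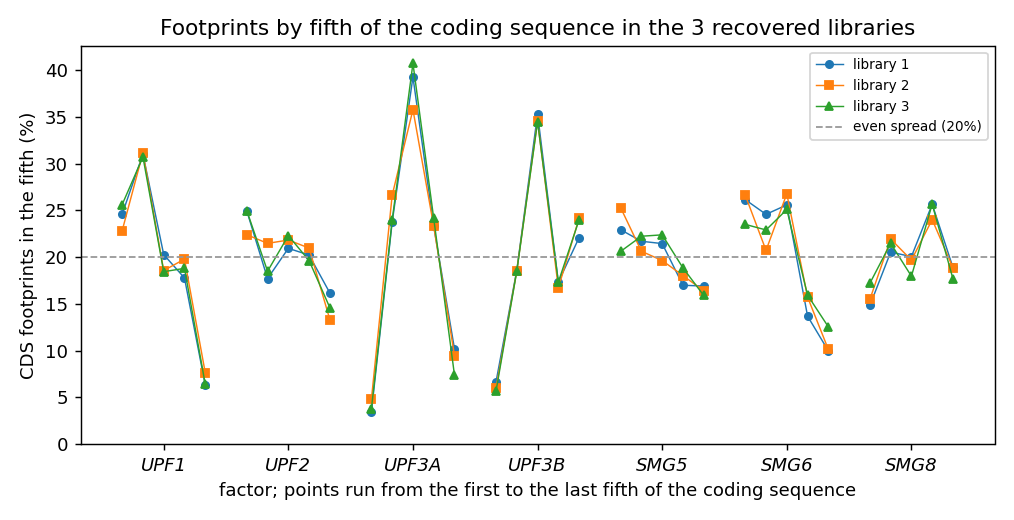
Share of CDS footprints (%) in each of 5 equal segments of the coding sequence, from the first to the last, for the 7 NMD factors in the 3 recovered libraries; the dashed line marks an even spread. The low last segment of UPF1 and the high segment 3 of UPF3A and UPF3B appear in all 3 libraries.

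On the start codon, UPF1 carried 107 reads (55, 25 and 27 in the libraries), 9.04 times its CDS mean (percentile 92.7 of all transcripts). SMG8 carried 45 reads (18, 12 and 15), 10.4 times its mean (percentile 94.0). Among the codons of its own CDS, the start codon ranked 22 in UPF1 and 10 in SMG8. SMG6 had 4 reads, at 2.27 times its mean (percentile 76.0). UPF3B also had 4, UPF2 had 1, and UPF3A and SMG5 had 0. Of all transcripts, the median ratio of the start codon to the CDS mean was 0.277. UPF3A had no read over codons 3 to 23, and UPF1 none over codons 46 to 74, its longest stretch without reads. On the last sense codon, SMG5 had 25 reads and UPF3A had 5, and UPF1, UPF2, SMG6 and SMG8 had none.

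Single codons stood far above the mean in every factor, with the highest codon holding between 1.54% and 3.61% of the CDS occupancy. This is not particular to these factors, since the median share of the highest codon over all transcripts was 4.86%. Every factor was below that median, from percentile 3.32 (UPF2) to 31.5 (UPF3B). The 30-base windows at the highest codons are shown because they hold the highest combined occupancy, with that codon in capitals and 12 bases before it. They lie in exon 7 of UPF3B (codons 247 and 257, chrX:118975090-118975119 and chrX:118975060-118975089, minus strand), in exon 8 of UPF3A (codon 291, chr13:115064327-115064356, plus strand), in exons 5 and 2 of UPF1 (codons 265 and 89, chr19:18961648-18961677 and chr19:18956810-18956839, plus strand), in exon 3 of UPF2 (codon 141, chr10:12071451-12071480, minus strand), in exon 2 of SMG6 (codon 312, chr17:2203096-2203125, minus strand), in exon 3 of SMG8 (codon 676, chr17:57290198-57290227, plus strand) and in exon 4 of SMG5 (codon 144, chr1:156246883-156246912, minus strand).
UPF3B codon 247: aaaaggaaagatATAgaaaagctaaagaag
UPF3B codon 257: atagacagaattCCAgaaagggacaaatta
UPF3A codon 291: ccagaaaagggaGAGgaaccaaccacagag
UPF1 codon 265: cagatcaacaagCTGgaggagctgtggaag
UPF1 codon 89: cagaacggggctGTGgacgacagtgtagcc
UPF2 codon 141: cgacatcatttaAGAaaggaacttcgtagc
SMG6 codon 312: agaattgatgagCCTgatggattaggaccc
SMG8 codon 676: ccagattcggatGCTgataaacttaaagaa
SMG5 codon 144: tgcatcgactggACCcatgtcactgacccc

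Codon 247 of UPF3B held 384 reads (157, 139 and 88 in the libraries), codon 257 held 349 (182, 102 and 65) and codon 253, between them, 231. The highest codons of the other mRNAs held fewer reads, and over the 7 factors the highest codon stood between 16.3 (UPF3A) and 33.8 times (SMG6) the CDS mean. Codon 312 of SMG6 held 49 reads (22, 15 and 12), and led in each library. Of the 7 highest codons, 3 led in 2 or more libraries (SMG6, UPF3A and UPF3B). Those of UPF1, UPF2 and SMG8 led in 1 library each, and codon 144 of SMG5 in none, where its rank was 2, 3 and 3. Codons 265 and 89 of UPF1 held 249 and 241 reads, at 21.2 and 20.9 times the mean.

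By exon, the UPF3 paralogs had their highest mean in the same place. Exon 7 had 0.151 per codon in UPF3A and 0.659 in UPF3B, which is 10.8 and 5.97 times the mean of exon 1. Exons 1 and 2 were low in both, at 0.0140 and 0.0127 in UPF3A and 0.110 and 0.0931 in UPF3B. The paralogs differed in exon 8, with 0.0347 in UPF3A, below the CDS mean, and 0.501 in UPF3B, above it. They differed the other way in exons 3 and 6, with 0.108 and 0.0878 in UPF3A, above its CDS mean, and 0.144 and 0.115 in UPF3B, below its own. The proteins of 476 and 470 residues were identical at 222 of 436 aligned positions (50.9%), and Spearman's rho of the occupancy over these positions was 0.216. In UPF3A, windows whose 30 bases also occur in another gene had a mean of 0.0665 over 307 codons, against 0.0506 over 161 codons found in UPF3A alone. The medians differed more, at 0.0191 in the shared windows and 0 in the others, where 67.1% and 43.5% of the codons held reads. Exons 1 and 4 hold no shared window and had means of 0.0140 and 0.0493, while 83.0% of the windows in exon 7 are shared. What reads from the pseudogenes add to these values was not tested. The comparisons by exon and by shared window, and of the recovered libraries, were chosen after the values had been seen.

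**Figure D5:**
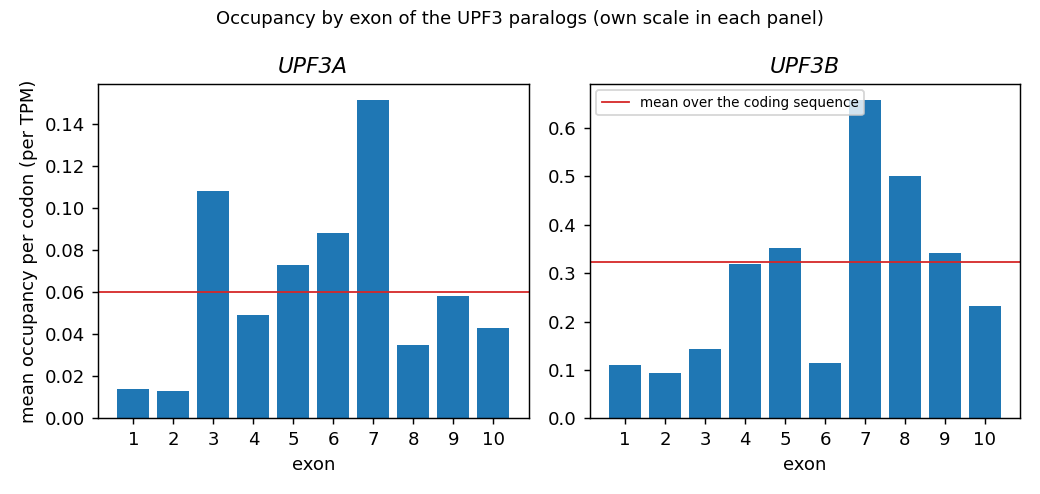
Mean occupancy per codon (per TPM, each panel on its own scale) in exons 1 to 10 of UPF3A and UPF3B; the red line is the mean of the coding sequence. Exon 7 is highest in both, at 0.151 and 0.659, and exons 1 and 2 are low.

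Outside the CDS, in-frame reads were few. Of 40220 in-frame reads of the 7 factors, 65 were in 5′UTRs and 7 in 3′UTRs. UPF1 held 57 of the 5′UTR reads, which is 0.436% of its reads (95% Wilson interval 0.336 to 0.564), and the other 6 factors 8 together. UPF3A, SMG5 and SMG6 had 0, which allows a share of up to 0.117%, 0.0997% and 0.146%. As a share of occupancy, the 5′UTR of UPF1 was at 0.450% (percentile 53.3), so this share was near the middle of all transcripts.

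In UPF1, 29 of the 57 reads lay on a single codon, 55 codons before the AUG, in all 3 libraries (11, 8 and 10). In the GENCODE model the site lies in exon 1 at chr19:18942842-18942871 on the plus strand, and it is shown with the codon in capitals. Read in the frame of the CDS, a stop codon interrupts the path from there to the AUG.
UPF1 5′UTR: cggcggctcggcACTgttacctctcggtcc

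Past the stop codon, UPF1, SMG5 and SMG8 had 2 reads each, UPF3A had 1, and UPF2, UPF3B and SMG6 had 0, which allows shares of up to 0.0694%, 0.0282% and 0.146%. The stop codon was TGA in 7 of 9 factors, TAA in UPF1 and SMG8 and TAG in 0, where 49.1%, 29.8% and 21.1% of all matched transcripts have these. The stop codon lay in the last exon in 8 of 9. In UPF1 it ends 3 nt before the last exon junction. In the GENCODE models the 3′UTR was longer than 1000 nt in 6 of 9 factors, against 52.5% of matched transcripts, from 228 nt in SMG8 to 4709 nt in SMG1.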

How the data were processed

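Per the labels, 3 RPF and 3 total RNA libraries of HEK293 cells were made. Replicates were repeats of the experiment, and libraries of both kinds that share a number were made from a common lysate, so the pairing lies within the deposited ratio. The authors deposited translational efficiency as a ratio in each replicate, and the formula was not found in the methods or labels. They deposited occupancy as in-frame RPF counts scaled by library size and set against TPM, with replicates combined. The submitters' processing notes name hg19, cutadapt 1.16, Bowtie 1.1.2, TopHat2 2.1.1 and HTSeq 0.9.1, while the methods name Hisat2 for total RNA. In 31 transcripts a broken CDS list was rejoined.

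Each gene was tested by limma (3.58.1, under R 4.3.3) with log2(value + 0.01) set against the median of all values, at an FDR of 0.05, with no filter on low values. On simulated data (8121 genes, 200 moved by 1 on the log2 scale), 80% of the moved genes and 3 unmoved genes were called, 0 with the wrong sign. The unmoved genes were simulated at the median, while 89.3% of the real genes were called, so these rates need not hold for the real data. Whole reads were recovered from the 3 steps that were found in 98.8% of transcripts, and on 200 simulated transcripts 100% of the values gave the exact reads. Transcripts were matched to GENCODE 44 (GRCh37) by symbol and CDS length. SMG1 and SMG9, without an occupancy row, could not be matched in this way, and their GENCODE transcript tagged MANE Select was used. The UTRs of a model can differ from those of the deposited transcript. The 5′UTR of UPF2 had 73 nt in the model against at least 93, and that of SMG8 had 17 against at least 30. That of UPF1 had 251 against at least 264, that of UPF3A 39 against at least 45 and that of UPF3B 70 against at least 90. Named genes are the 9 members and the genes of the pathway and marker lists. The text gives each list by counts and names examples. An item of the lists was left out of all counts and is not reported here. The members and lists were chosen with earlier results of these data known. Python 3.11.15, numpy 2.4.6, pandas 2.3.3, scipy 1.17.1, biopython 1.88 and matplotlib 3.10.9 were used. Alternatives were another pseudocount, a filter on low values, leaving out each replicate, a replicate block, the mean as reference, and leaving out the ends or highest codon of each CDS.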

Additional observations from a re-analysis of the deposited data

How the results depend on the processing

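Every call of the 9 factors held under the 7 alternatives for translational efficiency (63 comparisons), with the sign of SMG6, which was not called, varying. The 8 called factors had adjusted p-values from limma of up to 0.0354, and SMG6 of 0.0565 to 0.930. With the replicate block, in which each replicate's own median was removed, 7265 genes and 8 factors were called, against 7249 and 8 without it, and none of the calls of the 9 factors changed. Leaving out each replicate in turn gave medians of the 9 factors from -0.031 to 0.062 and 7015 to 7091 genes called. With the mean of all log2 values as reference, which lies 0.17 above the median, the median difference of the 9 factors was -0.16, and of all genes 3295 were higher and 4026 lower, against 3631 and 3618. For occupancy values above 0, 30 of 40 alternatives moved a value by no more than the SD of the 3 recovered libraries. The mean CDS occupancy of UPF3A, 0.0601, moved to 0.0631 without the 15 codons at each end and to 0.0581 without the highest codon. Without its highest codon, the 5′UTR share of UPF1 was 0.218%. The 2 5′UTR reads of UPF3B lie on the codon next to the AUG, and without it the share is 0. The share before the midpoint stayed on the same side of an even split in UPF3B (31.3% without the highest codon), SMG5 (54.5% and 57.0%) and SMG8 (46.1% and 47.7%). Depth limits the 5′UTR and 3′UTR values, with 8 reads in the 5′UTRs of the 6 factors other than UPF1 and 7 in all 3′UTRs. Out-of-frame reads were not analysed here.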
